A study of Mus musculus with 6 samples.

Results

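Abcc1 is the mouse gene for multidrug resistance-associated protein 1, and the 9 summits of a MafG ChIP-seq experiment that lie at this gene are described here. A summit is the single base of highest enrichment within a called peak. The members are all summits on chromosome 16 between 14335000 and 14480000 of the mm9 mouse assembly. The gene starts near 14361600 on the plus strand in that assembly. The 4 summit lists hold 11322 summits in all, of which 0 of 24 in vehicle replicate 1, 2 of 828 in vehicle replicate 2, 3 of 3894 in MG132 replicate 1 and 4 of 6576 in MG132 replicate 2 lie in this window. The gene and the window were selected on the summit positions, scores and ranks of these same lists, so the positions, scores and ranks below are a description and carry no test.

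All libraries came from mouse embryonic fibroblasts of the genotype MafF-/-::MafG-/-::MafK-/-:T-N1G. These cells lack the 3 small Maf proteins and express T-N1G, in which Nrf1 and MafG are tethered as one heterodimer. The treatment lasted 4 h and was either vehicle or the proteasome inhibitor MG132 at 1.0 µM, and chromatin was precipitated with an antibody against MafG (2 libraries per condition). The 2 input libraries of the series have no list analysed here. The labels give neither the promoter that drives T-N1G nor whether the cells are 1 clone. Nor do they say whether replicates are separate cultures.

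The Abcc1 protein is an ATP-binding cassette transporter of the plasma membrane. It exports glutathione conjugates, among them leukotriene C4, together with oxidised glutathione and a range of drugs, and so completes the detoxification that glutathione synthesis and glutathione transferases begin. Nrf1 and its relative Nrf2 are cap'n'collar transcription factors that bind DNA as heterodimers with a small Maf protein. Their recognition sequences are the antioxidant response elements of many detoxification genes. Nrf1 is degraded by the proteasome in unstressed cells, and proteasome inhibition raises it.

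The summits fell into 4 sites, called A to D here from upstream to downstream. Sites A and B are an upstream pair, about 10.5 and 8.7 kb before the gene start. Sites C and D lie about 4.7 and 11.5 kb beyond the gene start, on the side of the gene body. Distances are from the approximate start, and no mm9 exon or intron annotation was used here. In the order of genes in the GRCm38.p6 annotation, Abcc1 follows Cep20 and precedes the non-coding gene A630010A05Rik. No summit of any list fell between site B and site C, so none was called at the gene start itself. The plot of scores by distance from the start shows the 4 sites in each library.

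**Figure D1:**
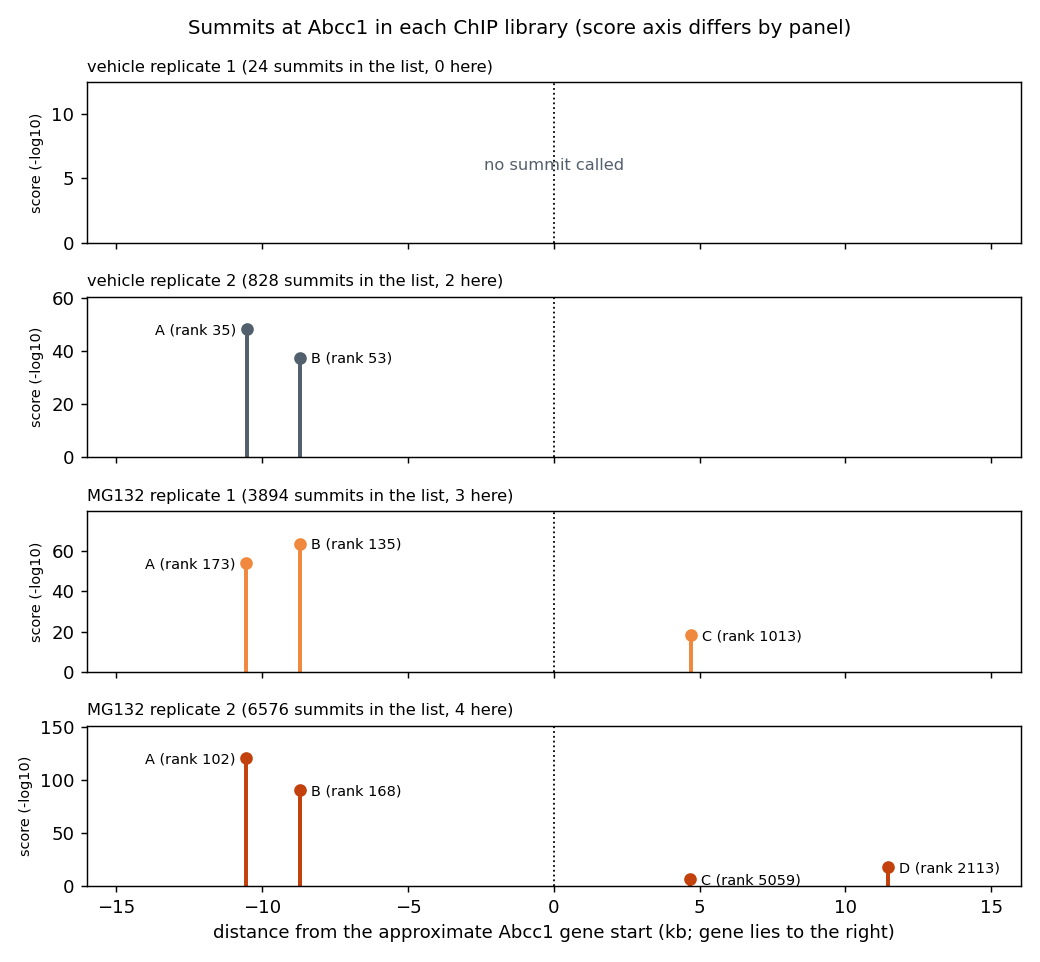
Score of each summit (−log10 of a p or q value, vertical axis, scaled separately in each panel) against distance from the approximate Abcc1 start (kb, horizontal axis) in the 4 ChIP libraries. Each stem is 1 summit and the dotted line is the gene start. Sites A and B stand upstream in 3 libraries, C in both MG132 libraries and D in MG132 replicate 2 alone. Vehicle replicate 1 has no summit here, and no list has a summit in the rest of the window.

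The upstream pair was called in vehicle replicate 2 and in both MG132 libraries, but not in vehicle replicate 1. It was among the stronger sites of every list that held it. Site A had its summit at 14351080 in vehicle replicate 2, at 14351066 in MG132 replicate 1 and at 14351058 in MG132 replicate 2. Its scores were 48.4, 54.1 and 121 in that order. These correspond to rank 35 of 828, rank 173 of 3894 and rank 102 of 6576. The score is the peak caller's own value for the peak and grows with the number of reads, so it is read here only against other summits of the same list. By the percentile of the score within its list, meaning the percent of summits with an equal or lower score, site A stood at 95.9, 95.6 and 98.5.

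Site B, the nearer of the pair to the gene, had its summit at 14352900 in vehicle replicate 2, 14352894 in MG132 replicate 1 and 14352892 in MG132 replicate 2. Its scores were 37.6, 63.9 and 90.4. Site B held rank 53 in vehicle replicate 2, rank 135 in MG132 replicate 1 and rank 168 in MG132 replicate 2, which are percentiles of 93.7, 96.6 and 97.5. Both sites thus lay in the top 6.40% of each of these 3 lists. Taking the better of the pair in each list, the percentile was 97.5 ± 1.35 (SD, n = 2 MG132 libraries). The better member was B in MG132 replicate 1 and A in MG132 replicate 2, so this value does not describe a single site.

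**Figure D2:**
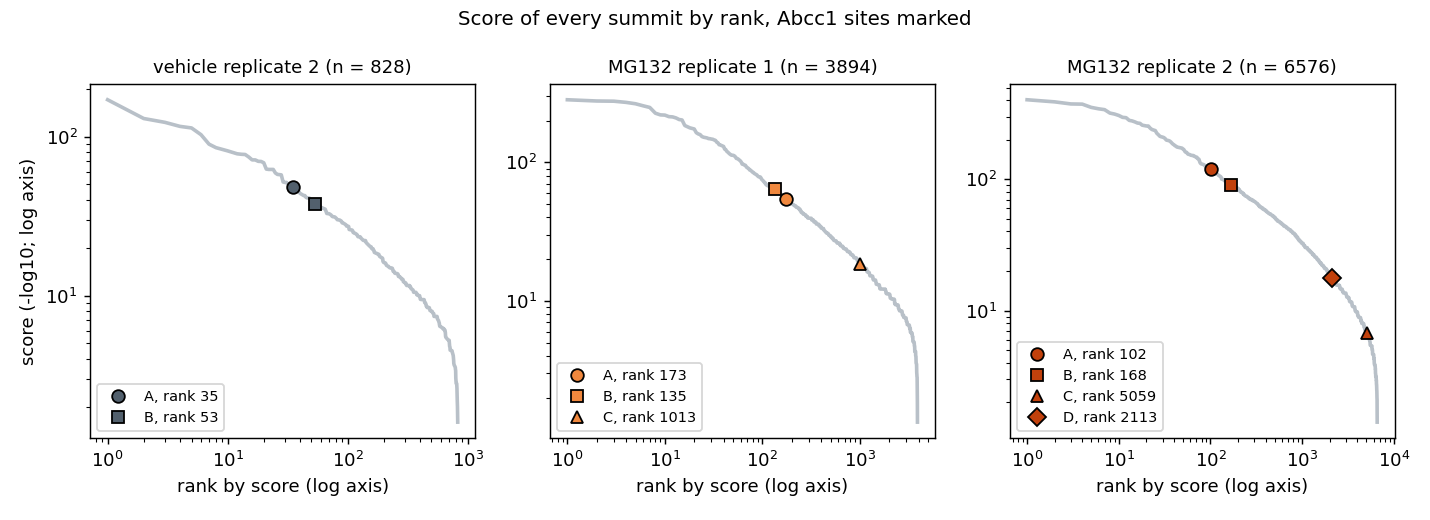
Score of every summit (−log10, vertical log axis) against its rank within the list (horizontal log axis) in vehicle replicate 2, MG132 replicate 1 and MG132 replicate 2. The grey line is the whole list and the markers are the Abcc1 sites. A and B sit together near the top of all 3 lists, at ranks between 35 and 173, while C is at rank 1013 in one MG132 list and 5059 in the other.

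The summits of the pair recurred at nearly the same bases. Site A spread over 22 bp and site B over 8 bp among the 3 libraries. Between the MG132 libraries the summits of A were 8 bp apart and those of B 2 bp apart. Across all 3379 sites called in both MG132 lists (mutually nearest summits no more than 200 bp apart), the median distance was 14 bp. Most of those sites ranked below A and B, and the distance at sites of like rank was not computed. Whether the small distances are particular to this pair was therefore not tested. The spacing from A to B was 1820 bp in vehicle replicate 2, 1828 bp in MG132 replicate 1 and 1834 bp in MG132 replicate 2. The mean was 1827 ± 7.02 bp (SD, n = 3 libraries), with a range of 14 bp. This SD joins vehicle with MG132, so it is not the spread within a condition. The single vehicle value lay below both MG132 values, by 8 and 14 bp. Between the MG132 lists the spacing changed by 6 bp at Abcc1. The median change was 18 bp over the 98 pairs of neighbouring shared sites described below. In 16 of the 98, Abcc1 included, the spacing changed by 6 bp or less. Among the 10 pairs with both members called in vehicle replicate 2, the change ran from 0 to 30 bp.

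Which member of the pair scored higher was not constant. In vehicle replicate 2 site A led, with a score 1.29 times that of B. MG132 replicate 2 had the same order, with a ratio of 1.34. In MG132 replicate 1 site B led by a ratio of 1.18, so the MG132 libraries gave opposite orders. The members were 18 ranks apart in vehicle replicate 2, 38 in MG132 replicate 1 and 66 in MG132 replicate 2. No condition can be tied to either order, because the 2 libraries of MG132 did not share one and vehicle gave 1 value.

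Sites A and B were both called in both MG132 lists, as was site C. Of the summits of MG132 replicate 1, 86.8% had one of replicate 2 within 200 bp, and 51.4% of the longer replicate 2 list had one of replicate 1. By mean percentile over the MG132 lists, A was 133rd and B 135th of the 3379 shared sites. Both also had a summit of vehicle replicate 2 within 200 bp of one of their MG132 summits, which held for 22.6% of the shared sites. Most of the strongest sites shared that property, since 86.4% of the 337 sites in the top 10% by mean percentile did. Presence in vehicle replicate 2 was thus the common case at the rank of A and B.

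Vehicle replicate 1 called neither member of the pair. Its whole list has 24 summits, and 0.681% of the shared MG132 sites and 2.66% of the summits of vehicle replicate 2 were found in it. Of the 337 sites in the top 10% by mean percentile, 6.82% were. Of the 34 summits that ranked above site A in vehicle replicate 2, 19 were in vehicle replicate 1. Only 3 that ranked below site A were, the last of them at rank 176. A site that is not listed was not called there, and its signal under the threshold is unknown. Whether the pair was occupied in that library cannot be read from the list.

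**Figure D3:**
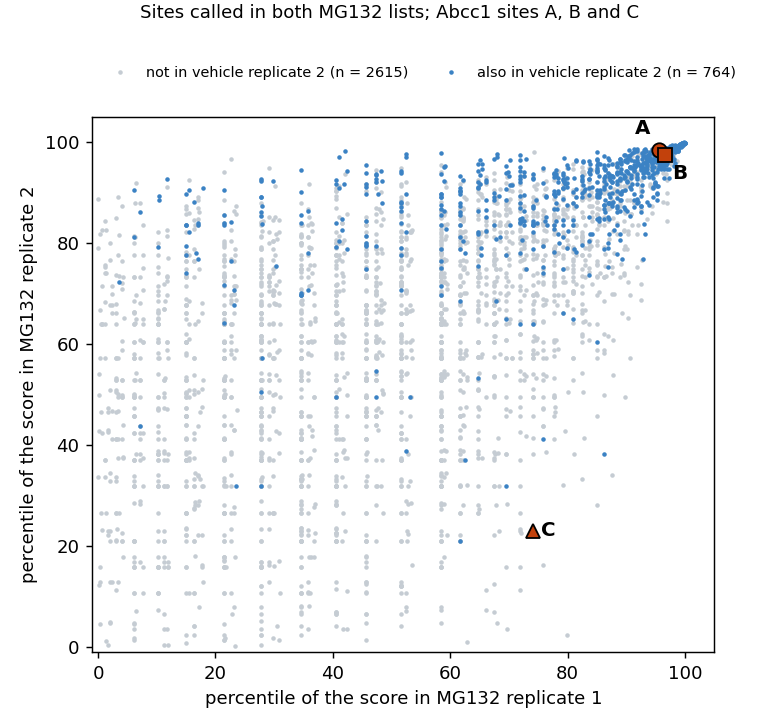
Percentile of the score in MG132 replicate 1 (horizontal) and replicate 2 (vertical) for the 3379 sites called in both lists. Blue points also have a summit of vehicle replicate 2 (n = 764), grey points do not (n = 2615), and the orange markers are Abcc1 sites A, B and C. A and B lie among the blue points of the upper right corner, and C, at percentiles 74.0 and 23.1, lies below most sites of its percentile in replicate 1. The stripes are summits with equal scores.

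Site C, beyond the gene start, was called in both MG132 libraries and in neither vehicle library. Its summit lay at 14366312 in MG132 replicate 1 and at 14366265 in replicate 2, 13.4 kb beyond site B in both. The scores were 18.3 and 6.74, at ranks 1013 of 3894 and 5059 of 6576. Site C was thus in the upper part of one list, at percentile 74.0, and in the lower part of the other, at percentile 23.1. The difference of 50.9 percentiles compares with a median difference of 14.9 over the 3379 shared sites, and 7.99% of them differed by as much or more. Of the 1051 shared sites with at least its percentile in replicate 1, 3 had a percentile in replicate 2 as low as its own, site C included. Its summits were also further apart than most, at 47 bp, and 9.35% of shared sites had summits at least that far apart. In MG132 replicate 2, 23.9% of the summits in the same 10% band by rank as site C had a partner in replicate 1. By mean percentile site C was 2266th of 3379. Of the 338 sites in its 10% band by mean percentile, 9.47% had a summit of vehicle replicate 2, so its absence from vehicle is the common case at that strength.

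Scores at this level are shared by many summits. The score of site C was held by 44 summits of MG132 replicate 1 and by 29 of replicate 2, and that of site D, below, by 55 of replicate 2. Tied summits are given the best rank of their group.

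Site D, the furthest into the gene body, was called in MG132 replicate 2 alone, at 14373070 and 6.81 kb beyond site C. Its score was 17.7, at rank 2113 of 6576 and percentile 67.9, well above site C in the same list. In MG132 replicate 2, 48.0% of summits had no partner within 200 bp in any of the other 3 lists. Among the 723 summits in the same 10% band by rank as site D, 63.1% were found in MG132 replicate 1 and 2.35% in vehicle replicate 2. Of the sites of the gene body, MG132 replicate 1 called C and not D, and MG132 replicate 2 gave D the higher score. Whether their order differed between the libraries cannot be read from this, because the signal at D in replicate 1 is unknown.

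Together the 4 sites of MG132 replicate 2 spanned 22.0 kb. The last summits before the window were 373 kb from its edge in MG132 replicate 1 and 366 kb in replicate 2, at 13962380 and 13969174, with scores of 5.10 and 2.31. After the window, the next summits were at 14522698 and 14522674, 42.7 kb beyond its end in each list, with scores of 16.2 and 30.2. In vehicle replicate 2 the nearest summits were 1562 kb before and 2441 kb after the window. Each chromosome was divided, up to its last summit, into consecutive windows of this length (145 kb), which gave 18135 over all chromosomes. They held 0.363 summits of MG132 replicate 2 on average, 0.215 of MG132 replicate 1 and 0.0457 of vehicle replicate 2. Most windows thus held no summit of a given list, so wide gaps such as those around Abcc1 were common. Of the 18135 windows, 90 (0.496%) held 4 or more summits of MG132 replicate 2. In MG132 replicate 1, 102 windows (0.562%) held 3 or more, and in vehicle replicate 2, 48 (0.265%) held 2 or more. The window was chosen for its summits, so these shares describe how many such windows there are and do not measure how unusual this one is.

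The spacing and strength of the upstream pair were set beside those of other neighbouring sites. The pair was chosen on its positions, scores and ranks, so its places in these orders are a description and do not measure rarity. Neighbouring sites called in both MG132 lists and no more than 10 kb apart formed 98 pairs, with a median spacing of 4.72 kb in MG132 replicate 2. The Abcc1 pair was the 17th closest of them, and 7 pairs were spaced between 1.5 and 2.0 kb. Ordered by the mean percentile of the weaker member, the Abcc1 pair came 2nd of 98, behind a pair on chromosome 8. In 10 of the 98 pairs (10.2%) both members were called in vehicle replicate 2, and among these 10 the Abcc1 pair was again 2nd, by the vehicle percentile of the weaker member, and 1 pair was closer together. The order of the members was the same in both MG132 lists in 64 of the 98 pairs, opposite in 32, the Abcc1 pair among them, and tied in one of the lists in 2. Among the 10 pairs found in vehicle replicate 2, the order there was that of MG132 replicate 1 in 4 and that of replicate 2 in 5.

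**Figure D4:**
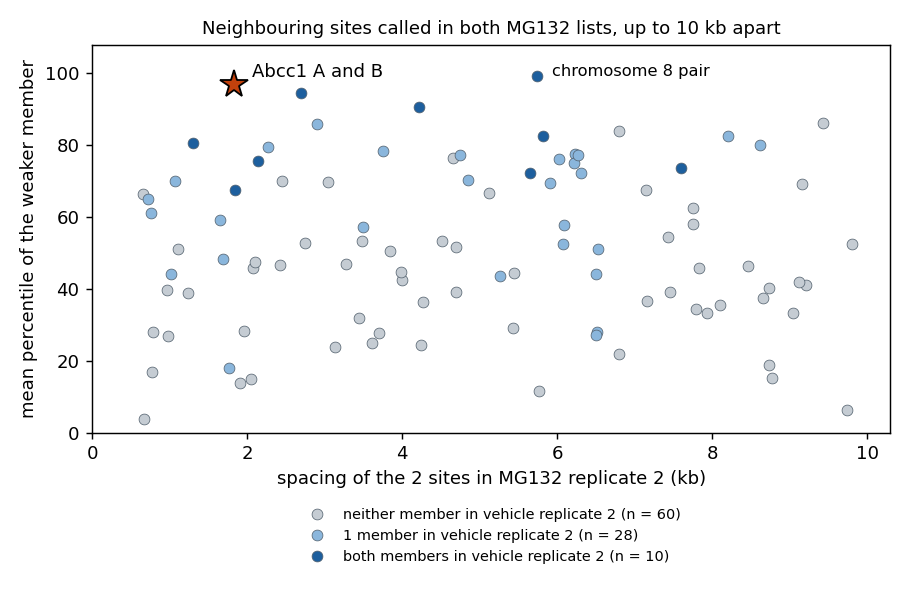
Mean percentile of the weaker member over both MG132 lists (vertical) against spacing in MG132 replicate 2 (kb, horizontal) for the 98 pairs of neighbouring sites up to 10 kb apart. Colour gives the number of members called in vehicle replicate 2. The star is the Abcc1 pair, at 1.83 kb, and only the chromosome 8 pair, at 5.74 kb, has a higher value.

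The chromosome 8 pair, at 77607907 and 77613647 in MG132 replicate 2, was the only pair with both members called in all 4 lists. Its members held ranks 2 and 1 in vehicle replicate 2, 25 and 4 in MG132 replicate 1 and 45 and 7 in MG132 replicate 2. The Abcc1 pair was therefore weaker within each list and more closely spaced. The 3 pairs most like Abcc1 in their percentiles over the 4 lists, with 0 where a site was not called, were on chromosomes 17, 11 and 4. The first, at 89850288 and 89852978 on chromosome 17, differed from the Abcc1 pair by 9.47 percentiles on average. It was 2.69 kb apart and stood at ranks 125 and 525 in vehicle replicate 2. The second, at 50024588 and 50026435 on chromosome 11, had nearly the spacing of the Abcc1 pair, 1840 bp in MG132 replicate 1 and 1847 bp in replicate 2, but differed by 14.4 percentiles. The third, at 3179982 and 3184201 on chromosome 4, was 4.22 kb apart and differed by 14.5 percentiles. Both members of these 3 pairs were called in vehicle replicate 2 and neither in vehicle replicate 1. This order of likeness depends on vehicle replicate 1, the list of 24 summits. There the chromosome 8 pair stood at percentiles 95.8 and 100, so it differed from Abcc1 by 27.1 percentiles on average. In the lists that held Abcc1, the chromosome 8 pair stood at 99.3 to 100 and the chromosome 17 pair at 36.7 to 96.0. Over those lists alone the chromosome 8 pair was the nearer of these to Abcc1.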

How the data were processed

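Each ChIP library has 1 deposited summit list of 1-bp intervals. Its score is a −log10 p or q value from the authors' peak caller, and every score exceeds 1.30, where a q value of 0.05 would lie. Per the submitters' processing notes, the build is mm9 and the tools include MACS2 2.1.4, Bowtie2 2.2.9 and bcl2fastq 2.16.0.10. The labels do not state how thresholds, duplicates and input were handled, and read depth is unknown. A deeper or cleaner library gives a longer list and higher scores, so ranks were taken within lists.

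Groups and replicate numbers follow the titles. Positions were made 1-based. Summits within 200 bp counted as one site, and no genome region was converted between builds. The matching was also run on simulated lists, with sites far apart and every partner well inside the match distance. Recovery there was fixed in advance, so this checked the code alone and not the matching of real summits. All sites in the window are named, as are the 3 most similar pairs and the best pair called in all 4 lists. The members and rules were chosen with earlier results of these data known. The planned motif search was not made, because no mm9 sequence was used here. Alternatives were score minimums, match distances, merging of close summits, equal list lengths, a narrower window and left-out libraries. Python 3.11.15, NumPy 2.4.6, pandas 2.3.3 and matplotlib 3.10.9 were used.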

Additional observations from a re-analysis of the deposited data

How the results depend on the processing

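Of 36 alternatives, 33 left the Abcc1 values within 1.5 times (counts) or 1 SD (spacing and percentile). Some of the 33 could not have moved. Vehicle replicate 1 has no summit in the window, so none of its counts could change. Leaving out 1 library shifts a mean of 2 or 3 values by less than 1 SD whatever the values. The total of 33 is therefore no measure of stability. With the window begun 10 kb before the gene start, which leaves out site A, vehicle replicate 2 held 1 summit. In the vehicle list alone the pair was 1820 bp apart, and leaving out 1 library at a time gave means of 1824 to 1831 bp. The mean percentile of the best Abcc1 site was 95.7 with scores of at least 10, which removes weak summits from the lists, and 96.6 and 98.5 in the single MG132 lists. Site C was lost from the sites called in both MG132 lists, leaving 2, with scores of at least 10 and with lists of equal length. This fall from 3 to 2 is just within 1.5 times, so both alternatives were counted among the 33. No paired analysis was possible because vehicle replicate 1 has no summit at Abcc1, so the pair's spacing can be set against MG132 within replicate number 2 alone (1820 and 1834 bp), and no result comes from a test. The unknown read depth limits every statement that a site was not called.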
